A study of Arabidopsis thaliana with 2 samples.

Results

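Histones are the proteins around which DNA is wound in nucleosomes, and the data below show where nucleosomes were listed on the genes that encode histones in Arabidopsis thaliana. The genes are 41 loci for histones H1, H2A, H2B, H3 and H4, taken by locus identifier from a published gene table that holds 27444 protein-coding nuclear genes. The data are a list of 397452 nucleosomes from micrococcal nuclease sequencing (MNase-seq), in which the nuclease digests linker DNA and the protected DNA is sequenced. The list covers 2 libraries, made from whole seedlings after 2 to 3 weeks in long days. The first is of nrpe1, a mutant in NRPE1, the gene of an RNA polymerase V subunit, and the other is of wild-type Col-0. The list gives no genotype for any nucleosome, so nrpe1 and Col-0 could not be compared. There were no replicates, sequencing depth is unknown, and the values below are descriptions of that pooled list without a test. A nucleosome was counted in a gene when its centre lay there. Listed intervals can overlap, and 64.6% of them overlap a neighbour. A count is therefore of listed positions, not of nucleosomes known to be present together on the same DNA molecule. In all, 240 listed nucleosomes were centred in a histone gene or within 500 bp of one, and 156 of them lay in the genes themselves.

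A nucleosome holds a core of H2A, H2B, H3 and H4, and linker histone H1 binds where DNA enters and leaves it. In plants, H3.1 and H4 genes are known as replication-dependent genes, transcribed mainly in S phase of dividing cells. H3.3 is expressed through the cell cycle and replaces H3.1 in transcribed chromatin, and H2A.Z is a variant found around gene starts and over repressed genes. The loci comprised 5 H3.1, 8 H4, 3 H3.3, 4 H2A.Z, 3 H1, 4 canonical H2A, 2 H2A.X, 3 H2A.W and 9 H2B genes. H2A.X marks DNA breaks when phosphorylated, and H2A.W is a variant of heterochromatin. Of the 41 loci, 28 have a histone name in the gene table. The class of the other 13, and the variant class of H2A genes, were assigned from general knowledge of these loci. The place of HTA4 (AT4G13570) among the H2A.Z genes was treated as uncertain. No nucleotide or protein sequences of these genes were used here.

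Histone genes held somewhat fewer listed nucleosomes per length than the usual protein-coding gene. Their median was 3.54 centres per kb of gene, with a range from 0.999 to 6.54, against 4.03 for all protein-coding genes, whose quartiles were 3.05 and 5.07. Below that median lay 27 of the 41, where 50% of all protein-coding genes lie by construction. At or above the upper quartile were 4 of the 41 (25% of all protein-coding genes), and at or below the lower quartile were 10 (again 25%). Listed intervals covered a median of 47.7% of a histone gene and 51.5% of a protein-coding gene. Every histone gene held at least 1 centre, 31 of them 2 to 4 centres and 9 of them 5 to 9. A difference of 1 centre is thus worth between 0.502 per kb in the longest gene and 1.55 per kb in the shortest, and gaps between genes below that size are not resolved.

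Histone genes are short, with lengths of 644 to 1992 bp and a median of 972 bp. Among the 10941 protein-coding genes in the same length range the median density was 4.12 per kb, and 29 of the 41 histone genes lay below it. The low values were most frequent at intermediate lengths. Of the 13 histone genes from 800 to 1100 bp, 12 lay below the median of protein-coding genes of that length, 4.204 per kb. Of the 12 genes from 500 to 800 bp, 7 did so, against a median of 4.28 per kb there.

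**Figure D1:**
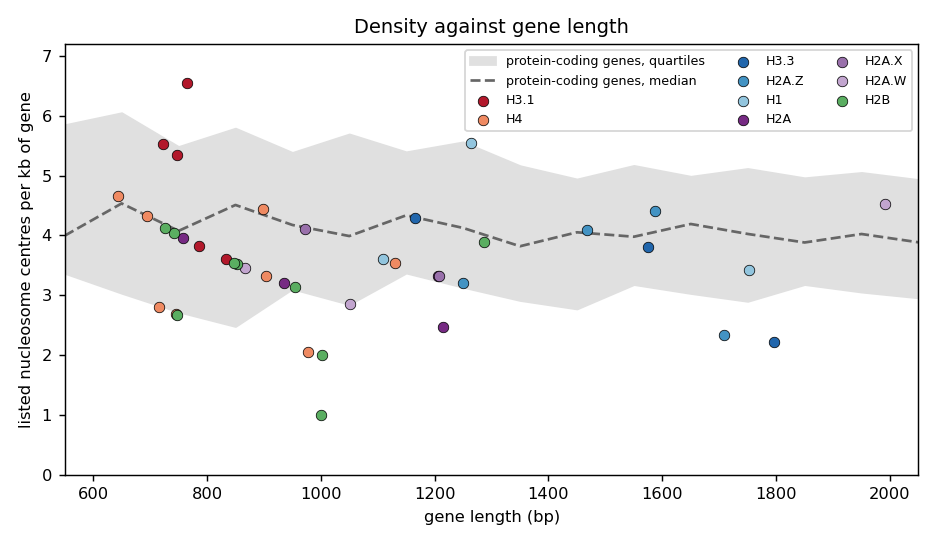
Density of listed nucleosome centres (per kb of gene) against gene length (bp) for the 41 histone genes, coloured by class; the band and dashed line are the quartiles and median of protein-coding genes in bins of 100 bp. Most points lie below the dashed line, and 3 H3.1 genes with densities of 5.35, 5.53 and 6.54 per kb stand near or above the band.

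Over all listed nucleosomes the H3.1 genes were the densest class, and they spread widely. AT1G09200 held 5 nucleosomes on chromosome 1, at 2971612 to 2971749, 2971707 to 2971832, 2971808 to 2971940, 2971909 to 2972072 and 2972032 to 2972181 (TAIR10, as listed). Each of them overlapped the next, and together they covered 74.6% of the gene, at 6.54 centres per kb. That density was above that of 91.3% of protein-coding genes in the histone length range. Because these positions overlap, it is a density of listed positions and does not show 5 nucleosomes side by side. AT5G65360 held 4 nucleosomes, at 5.53 per kb, also in a single overlapping chain, from 26120085 to 26120521 on chromosome 5. AT5G10390 held 4, at 5.35 per kb. The remaining H3.1 genes lay below the median of protein-coding genes. AT5G10400 held 3 nucleosomes at 3.82 per kb, at 3270468 to 3270593, 3270583 to 3270739 and 3270775 to 3270906 on chromosome 5. AT3G27360 held 3 at 3.60 per kb, between 10129468 and 10129814 on chromosome 3, covering 41.7% of the gene.

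The authors' score, a number from 0.5 to 0.991 used here only to rank nucleosomes within the list, set the H3.1 genes apart from each other in another order. All 3 nucleosomes of AT5G10400 scored at or above the list median of 0.790, with scores of 0.891, 0.867 and 0.892. None of the 3 in AT3G27360 did, with scores of 0.719, 0.728 and 0.619. In AT1G09200 the scores were 0.767, 0.877, 0.641, 0.794 and 0.631, so that 2 of 5 reached the list median. The class as a whole had a median score of 0.728, against 0.788 in all protein-coding genes. Counting only nucleosomes at or above the list median score, H3.1 genes were no longer the densest class: their median was 1.38 per kb, below the 1.44 of H2A.X, 1.56 of H2B, 1.90 of canonical H2A and 2.28 of H1 genes and the 1.96 of all protein-coding genes. In H3.1 genes 1 centre is worth 1.20 to 1.38 per kb, more than any of these gaps, so this order of classes is not resolved. With 500 bp on either side, too, their median of 2.86 per kb lay below the 4.09 of H2A.X and the 2.91 of H1 genes. The gap to H1 genes there is likewise smaller than 1 centre.

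The 8 H4 genes held fewer listed nucleosomes per length than the H3.1 genes, with a median of 3.43 per kb. The highest was AT3G46320 with 3 nucleosomes at 4.66 per kb, followed by AT5G59970 with 4 at 4.45 per kb and AT3G45930 with 3 at 4.32 per kb. These genes alone in the class lay above the median of protein-coding genes, and none reached the upper quartile. AT3G53730 held 4 nucleosomes at 3.54 per kb and AT1G07660 held 3 at 3.32 per kb. At or below the lower quartile were HIS4 (AT2G28740) at 2.80 per kb, AT5G59690 at 2.68 per kb and AT1G07820 at 2.04 per kb, each with 2 nucleosomes. Those of AT1G07820 lay at 2421404 to 2421545 and 2421558 to 2421718 on chromosome 1, side by side in the middle of the gene and with scores of 0.915 and 0.869. In AT5G59690 the 2 nucleosomes lay at 24051594 to 24051738 and 24051734 to 24051883 on chromosome 5, and the rest of the gene held no centre.

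The H3.1 and H4 genes have a median length of 764 bp and the H3.3, H2A.Z and H1 genes, described next, one of 1521 bp. Among H3.3 genes, AT5G10980 held 5 nucleosomes at 4.29 per kb, AT4G40030 held 6 at 3.81 per kb and AT4G40040 held 4 at 2.23 per kb. In AT4G40030 all 6 overlapped a neighbour and lay between 18555717 and 18556427 on chromosome 4. The 745.5 bp between the last of these centres and the far end of that gene held none. The H3.3 nucleosomes had a median score of 0.687, and 4 of 15 reached the list median.

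Of the H2A.Z genes, HTA11 (AT3G54560) held 7 nucleosomes at 4.41 per kb and HTA4 (AT4G13570) held 6 at 4.09 per kb. HTA9 (AT1G52740) held 4 at 3.20 per kb, none of which reached the list median score. HTA8 (AT2G38810) held 4 at 2.34 per kb, of which 3 overlapped within 500 bp of the lower end and the last lay at 16220540 to 16220678 on chromosome 2. Between those 3 and the last, from 403.5 to 1389 bp along the gene, no centre was listed. Among H1 genes, AT1G06760 held 7 nucleosomes at 5.54 per kb, which covered 71.0% of it, from 2076698 to 2077614 on chromosome 1. HIS1-3 (AT2G18050), a linker histone known to be induced by drought, held 4 at 3.61 per kb, and AT2G30620 held 6 at 3.42 per kb.

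**Figure D2:**
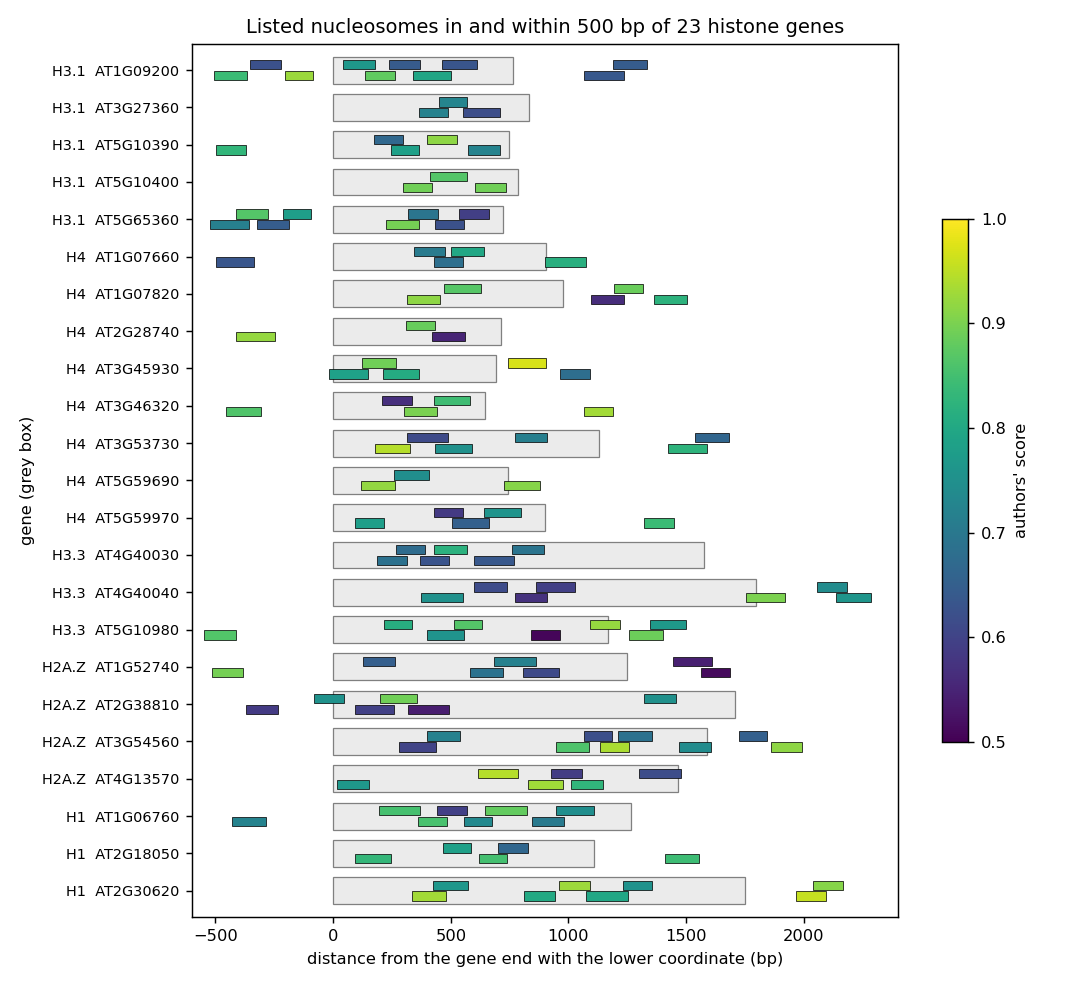
Listed nucleosomes (coloured boxes, drawn at their length and alternately higher and lower so that overlaps show) in and within 500 bp of the 13 H3.1 and H4 genes and the 10 H3.3, H2A.Z and H1 genes (grey boxes), by distance in bp from the gene end with the lower coordinate. Colour gives the authors' score; AT1G09200 and AT1G06760 show unbroken or nearly unbroken chains, and AT1G07820 and AT5G59690 hold 2 nucleosomes each.

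Taken as sets, H3.1 and H4 genes did not stand apart from H3.3, H2A.Z and H1 genes in density. The 13 H3.1 and H4 genes had a median of 3.82 per kb (range 2.04 to 6.54) and the 10 H3.3, H2A.Z and H1 genes 3.71 per kb (range 2.23 to 5.54), a ratio of 1.03. The ranges overlapped almost entirely. Summed over genes, there were 42 centres at 3.98 per kb in H3.1 and H4 genes and 53 centres at 3.61 per kb in H3.3, H2A.Z and H1 genes. The median share covered was 51.4% in H3.1 and H4 genes and 43.8% in H3.3, H2A.Z and H1 genes. Within the first set, H3.1 genes had a median of 5.35 per kb and H4 genes one of 3.43, with overlapping ranges. The ratio to H3.3, H2A.Z and H1 genes was 1.44 for H3.1 alone and 0.925 for H4 alone, a division made after the values had been seen. It did not hold for nucleosomes at or above the list median score, where the medians were 1.38 per kb for H3.1 and 1.37 for H4 genes, and the ratios 0.903 and 0.895.

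**Figure D3:**
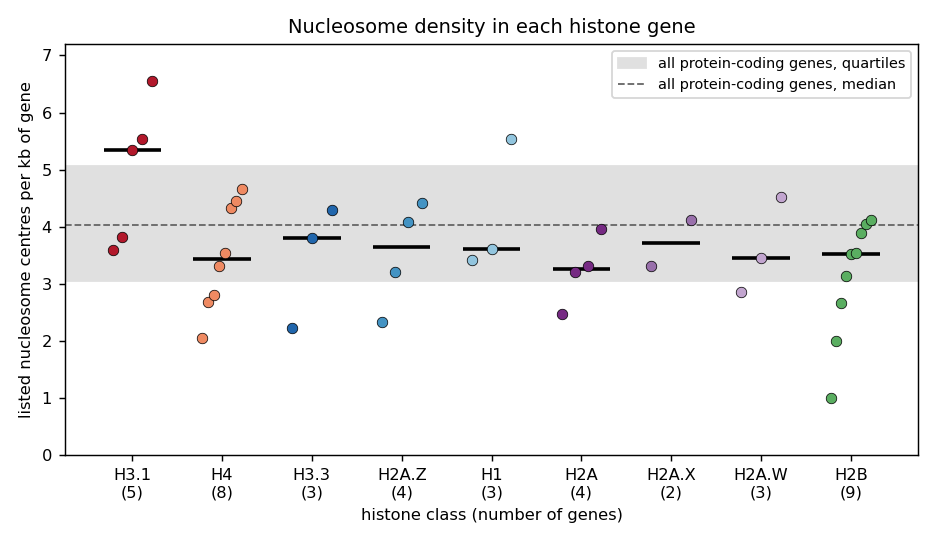
Density of listed nucleosome centres per kb of gene for each histone gene (points) by class, with the class median (black bars) and the quartiles and median of all protein-coding genes (band and dashed line). H3.1 has the highest class median over all listed nucleosomes, 5.35 per kb, and the lowest point is an H2B gene at 0.999 per kb.

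Genes for H2A, H2A.X, H2A.W and H2B lay mostly below the usual gene, 14 of these 18 under the median of protein-coding genes. The 4 canonical H2A genes had a median of 3.26 per kb, from HTA2 (AT4G27230) with 3 nucleosomes at 2.47 per kb to HTA13 (AT3G20670) with 3 at 3.96 per kb, and all 4 lay below the median of protein-coding genes. The H2A.X genes H2AXA (AT1G08880) and GAMMA-H2AX (AT1G54690) held 4 nucleosomes each, at 3.31 and 4.12 per kb. Among H2A.W genes, HTA7 (AT5G27670) held 3 at 2.85 per kb and HTA12 (AT5G02560), the longest histone gene, held 9 at 4.52 per kb. The 9 H2B genes had a median of 3.52 per kb, and 7 of them lay below the median of protein-coding genes. The sparsest of all histone genes was the H2B gene AT2G28720, with 1 nucleosome at 12326967 to 12327109 on chromosome 2, 14.3% covered. Its density of 0.999 per kb exceeded that of only 2.08% of protein-coding genes in the length range. The densest H2B gene was HTB9 (AT3G45980), with 3 nucleosomes at 4.13 per kb.

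H4 and H2B genes differed in how their nucleosomes lay, although both classes are short and sparse. In H4 genes 19 of 23 nucleosomes overlapped a listed neighbour, and in H2B genes 10 of 25 did. The overlap was also frequent in H3.1 genes, with 16 of 19, and in H1 genes, with 14 of 17. Over H3.1 and H4 genes together the share was 83.3%, over H3.3, H2A.Z and H1 genes 73.6%, and over the H2A, H2A.X, H2A.W and H2B genes 44.3%. Protein-coding genes in the histone length range stood at 64.3%. All histone genes together, at 64.7%, were close to that, so the classes lay on either side of it. Nucleosomes of the same gene are not independent, and this grouping was made after the values had been seen.

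Counted by gene, 10 of the 41 histone genes held no overlapping nucleosome, against 13.4% of protein-coding genes with a listed centre. Genes with few nucleosomes have fewer chances to overlap. Among genes of the histone length range with 2 to 4 centres, 39.4% of 3594 had none, and 9 of 31 histone genes with 2 to 4 centres had none. Among the classes these were 0 of 4 H3.1 genes and 1 of 8 H4 genes, against 5 of 7 H2B genes and 2 of 2 H2A.W genes. HTB2 (AT5G22880), named here after its values were seen, held 3 nucleosomes in a row at 7652087 to 7652227, 7652265 to 7652416 and 7652417 to 7652543 on chromosome 5. In AT3G09480, likewise named afterwards, the 3 lay at 2914882 to 2915044, 2915096 to 2915256 and 2915349 to 2915480 on chromosome 3, with scores of 0.904, 0.876 and 0.909. The median step between successive centres in a gene was 114 bp in H3.1 genes (14 steps), 131 bp in H4 genes (15 steps) and 166 bp in H2B genes (16 steps), and in protein-coding genes of the length range 142 bp. In H4 genes 10 of 23 nucleosomes scored at or above the list median, and in H2B genes 15 of 25 did. H2B had the highest median score of the classes, 0.815.

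**Figure D4:**
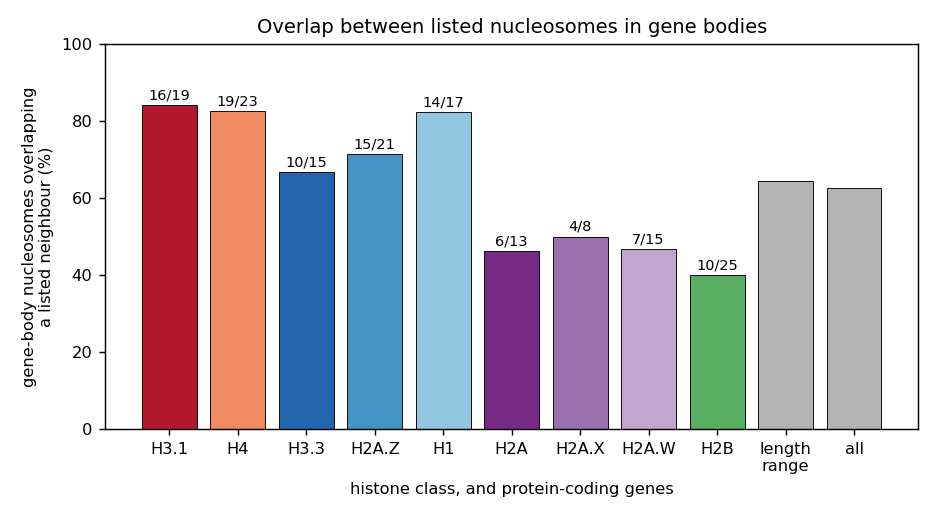
Share of gene-body nucleosomes that overlap a listed neighbour (%) by histone class, with the counts above the bars, and in protein-coding genes of the histone length range and in all protein-coding genes (grey). H3.1, H4 and H1 stand above 80%, H2B at 40%, and the grey bars at 64.3% and 62.7%.

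At their ends, histone genes carried few nucleosome centres just inside the gene. Starts and ends were not told apart, because no strand was used here. A centre lay in the first 100 bp inside at 7 of 82 histone gene ends, or 8.54%, against 19.9% of all protein-coding gene ends. This measure was not planned and was chosen after the data had been seen. In the histone length range it was 21.2%. Only 1 of these 7 was at the 26 ends of H3.1 and H4 genes, that of the H4 gene AT3G45930, where a nucleosome at 16883297 to 16883462 straddles the gene end. The 20 ends of H3.3, H2A.Z and H1 genes had 4, or 20%, close to the share of all protein-coding gene ends. Of these 4, 3 belonged to HTA11 and HTA4, including both ends of HTA4, and 1 to the H3.3 gene AT5G10980. The remaining 2 lay at H2B genes. The contrast between the H3.1 and H4 set and the H3.3, H2A.Z and H1 set depended on the window. In the first 50 bp inside, 0 of 26 ends in the former set and 2 of 20 in the latter had a centre. In the first 150 bp the counts were 6 of 26 (23.1%) and 4 of 20 (20%), against 31.9% of all protein-coding gene ends. Farther in, between 100 and 300 bp, histone genes reached 3.60 centres per kb and protein-coding genes of the length range 4.11. Between 300 and 500 bp inside the values were 5.39 in histone genes and 5.0 in those genes. The median distance from a gene end to the nearest centre inside was 267 bp in histone genes and 212 bp in protein-coding genes of the length range.

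**Figure D5:**
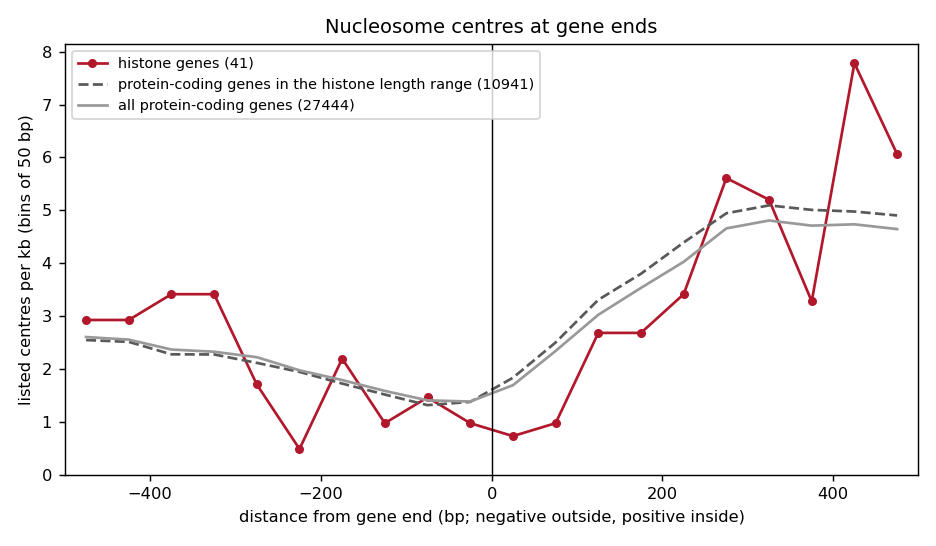
Listed centres per kb in bins of 50 bp around gene ends (negative outside, positive inside; both ends of each gene, and inside a gene each base counted for its nearer end) for histone genes, protein-coding genes of the histone length range and all protein-coding genes. Histone genes lie below both other lines in the first 100 bp inside, at 0.732 and 0.976 per kb; bins beyond 300 bp inside rest on few bases of the short genes.

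Outside the genes, how histone genes compared with other genes depended on the window. No centre was listed in the 250 bp outside 59 of 82 histone gene ends, or 71.95%, against 67.1% of all protein-coding gene ends. No listed interval reached into those 250 bp at 51 histone gene ends, or 62.2%, against 51.7% of all protein-coding gene ends. Between 300 and 500 bp outside, histone genes held 3.17 centres per kb and protein-coding genes of the length range 2.40. With 500 bp on either side, 5 histone genes had no flanking centre at all, against 19.6% of protein-coding genes. They were the H3.1 genes AT3G27360 and AT5G10400, the H3.3 gene AT4G40030, HTA4 and HTA12. Per gene, the flanks of H3.1 and H4 genes held a median of 2 centres, as did those of H3.3, H2A.Z and H1 genes. Most of what was listed there lay in neighbouring genes. Another annotated gene lay within 500 bp of 38 of the 41, and 61 of the 84 flanking centres fell in such genes. The other 23 lay in 23.4 kb of sequence outside any gene, or 0.984 per kb, against 1.11 per kb for protein-coding genes. Most flanking centres of protein-coding genes also fell in other genes, with 19968 of 55516 outside any gene. In the histone length range 8446 of 21469 lay outside. How many protein-coding genes have another gene within 500 bp is not given here. All 4 flanking centres of AT5G65360, for example, lay in HTR11 (AT5G65350), another H3 gene 33 bp away. In flank sequence outside any gene, summed over genes, the 5 H3.1 genes had no listed centre in 2.70 kb and the 8 H4 genes had 5 in 5.37 kb. Together that was 0.620 per kb for H3.1 and H4 genes, against 1.08 per kb for H3.3, H2A.Z and H1 genes, which had 6 centres in 5.53 kb. H2A.W genes also had none, in 1.82 kb. The flanks of the H3.1 genes AT5G10390 and AT5G10400, 577 bp apart, overlap. Part of the empty sequence between them was thus counted for both genes in the 2.70 kb, the 0.620 per kb and the 23.4 kb.

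Adjacent histone genes were in part separated by stretches without listed centres. The H3.1 genes AT5G10390 and AT5G10400 are 577 bp apart with no centre between them, and 1044 bp separate the last centre in AT5G10390 from the closest one in AT5G10400. The H3.3 genes AT4G40030 and AT4G40040 are 42 bp apart, and 1250 bp separate their closest centres. The H2B gene AT2G28720 and the H4 gene HIS4, 1536 bp apart, had 3 centres between them. At single ends the longest such stretches were at AT2G30620, an H1 gene, with 2941.5 bp across one end, and at HTB9, with 2637.5 bp. At protein-coding gene ends of the length range the median was 680 bp, close to the 698 bp of histone genes. The other end of AT2G30620 had its closest centres 736.5 bp apart.

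H3.1 genes resemble each other in sequence, as do H4 genes. No source used here says how reads that match several copies were placed, and the part of such reads in these values was not tested.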

How the data were processed

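DNA of seedlings was digested with micrococcal nuclease and size-selected on a 2% agarose gel, per the labels' protocols. Bowtie and TAIR10 are named in the submitters' processing notes. No source used here gives the Bowtie version, the nucleosome caller, what the score means or how the libraries were combined. The deposited file is 1 pooled list with chromosome, start, end and a score per nucleosome, per the file headers; intervals run from 120 to 180 bp. Groups were nrpe1 and Col-0, 1 library each, and 0 columns hold values of a single library, so no test was made. With no read counts, depth and its precision are unknown.

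Gene positions are those of RefSeq for TAIR10.1, in a table without strand, and 41 of 41 loci matched; list and table were read in the same coordinates, as they stand. Centres were counted in genes, in 500 bp flanks and in windows at gene ends (Python 3.11.15, pandas 2.3.3), and interval counting was tested on simulated data. Alternatives were a score filter, other windows, coverage, other backgrounds and single classes. The members and lists were chosen with earlier results of these data known. All members of H3.1, H4, H3.3, H2A.Z and H1 are named, and the lowest and highest of the other classes. Promoter motifs and the region before a start need sequence and strand and were not analysed here; gene ends replaced the latter.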

Additional observations from a re-analysis of the deposited data

How the results depend on the processing

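Of 26 alternative values, 23 stayed within a spread set around the main value. For medians this was the standard deviation between genes of the first group, divided by the second median. For shares it was the 95% exact binomial interval, and for counts 1.5 times the count. For the 59 of 82 ends without a centre in the 250 bp outside, that limit lies above all 82 ends. The window of 150 bp lies inside that of 250 bp, so its count had to stay within the spread and checks nothing. The spread between genes is wide, and at 0.263 around the ratio of histone to protein-coding genes it includes equality. Staying within it is therefore a weak check. The binomial intervals were 0.176 to 0.846 for the share of ends and 1.55 to 2.10 for the overlap ratio. They treat nucleosomes and ends of a gene as independent and so may be too narrow. They also hold only the uncertainty of the first share, divided by the second as a fixed value. For the overlap ratio that second share rests on just 27 of 61 nucleosomes, so its interval is too narrow for a ratio. The 3 that moved were the ratio of H3.1 alone to H3.3, H2A.Z and H1 genes (1.44), the ratio of flank medians with other genes left out (0, from medians of 0 per kb for H3.1 and H4 and 0.5 for H3.3, H2A.Z and H1), and the overlap ratio of H3.1 and H4 to H2A, H2A.X, H2A.W and H2B among genes under 1 kb (2.30, against 1.88). The cause was not tested. The ratio of histone to protein-coding genes (0.879) ran from 0.712, for nucleosomes with at least the median score, to 0.927, by share covered. Without HTA4, whose class is uncertain, it was 0.878, and the ratio of H3.1 and H4 to H3.3, H2A.Z and H1 genes was 1.06. H3.1 and H4 over H3.3, H2A.Z and H1 turned from 1.03 to 0.903 with that score filter (0.903 for H3.1 alone, 0.895 for H4 alone) and to 0.973 with flanks, so its direction is not settled. The share of ends with a centre in the first 100 bp inside, 0.430 of that of all genes, became 0.688 for 150 bp and 0.227 for the higher-scoring set. Under that filter the overlap ratio rested on 6 of 17 and 6 of 30 nucleosomes. Flanks of 250 bp gave medians of 0 in both sets and no ratio. The measures just inside gene ends and of overlap were chosen after seeing the data, as were the alternatives on gene ends, overlap and single classes. No paired analysis was possible because the list assigns no nucleosome to a library.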

Other observations

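Genes that belong to the same pathway but are not among the 41 loci were described with a further pair of lists. Of 7 other histone genes, which include variants known from pollen and from centromeres, 5 lay at or above the upper quartile of protein-coding genes in density (25% of all). At or below the lower quartile lay 0 (again 25%). Their median was 5.43 per kb and their median length 921 bp. The lowest was HTR12 (AT1G01370), the centromeric H3, with 10 nucleosomes at 3.34 per kb. The highest was AT5G12910, a gene of 396 bp, with 4 at 10.1 per kb. MGH3 (AT1G19890), an H3 gene named for male gametes, held 6 at 5.63 per kb, and was named after its value was seen. Against genes of similar length (bins of 100 bp), MGH3 and AT1G08170, at 5.33 per kb, lay just below the upper quartiles of 5.70 and 5.39. AT1G75600 (5.43 per kb) and HTR11 (6.50 per kb) lay above theirs, and AT5G12910 is shorter than the lengths binned.

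Of 12 histone chaperone genes, whose products carry histones to DNA, 6 lay at or below the lower quartile (25% of all protein-coding genes). At or above the upper quartile lay 0 (again 25%), and the median was 3.11 per kb. Apart from ASF1B, at 3.03 per kb, the 6 low genes were all NAP1 or NRP genes, at 1.85 to 2.83 per kb. The lowest was NAP1;3 (AT5G56950), a nucleosome assembly protein, with 6 nucleosomes at 1.85 per kb. The highest was HIRA (AT3G44530), a chaperone of H3.3, with 28 at 4.64 per kb. HIRA lay above the median of protein-coding genes, as did FAS2 and MSI1, named after their values were seen. The chaperone genes are longer than the histone genes, with a median of 3172.5 bp, and these lists were not tested against each other.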
